A study of Mus musculus with 5 samples.

Results

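Among genes measured in the gut of mice given aspirin, with or without a protective agent before it, 40 genes of the cornified envelope and of late epidermal differentiation are described here: the Lce1 and Lce3 families, Sprr genes, filaggrin type genes, envelope enzymes and protease inhibitors. The list was drawn up by gene function, and it was selected from results of these same arrays, so its overall pattern is given as a description with no test. A probe set that names a single gene existed for 38 of the 40, with 1 probe set each, out of 19938 genes measured that way. Flg, the gene of filaggrin, and Lce1m had no such probe set and are not analysed here.

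The cornified envelope is the tough protein shell that replaces the plasma membrane of squamous epithelial cells as they die and flatten at the surface. Transglutaminases cross-link precursors such as loricrin, involucrin, the small proline-rich proteins and the late cornified envelope proteins into that shell, while lipids are secreted around it and proteases and their inhibitors time its shedding. Many of the precursor genes lie side by side in the epidermal differentiation complex of chromosome 3. In mice a keratinised squamous epithelium lines not only the skin but also the oesophagus and the forestomach, so these genes are part of the normal make-up of the upper gut.

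Total RNA was hybridised to 1 Affymetrix Mouse Gene 1.0 ST array for each of 5 groups of healthy male ddY mice, an outbred stock, aged 5 weeks. Each group had 2 oral administrations 0.5 h apart and its gut was taken 4 h after the last: gum arabic and gum arabic (GA+GA, the vehicle control), Lactobacillus gasseri OLL2716 and gum arabic (LG21+GA), gum arabic and aspirin (GA+Asp), teprenone and aspirin (Tep+Asp, teprenone being a mucosal protective drug), and Lactobacillus gasseri OLL2716 and aspirin (LG21+Asp). RNA came from a portion of each gut; how many mice an array stands for, the doses and the region sampled are not given in the sources used here. With 1 array per group there is no replicate error, so no difference below carries a standard error or a test, and precision is limited by how few arrays there are.

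Values are log2 expression values, on which 1 unit is a 2-fold difference. Array medians lay between 6.95 and 6.98, and the 19938 genes had a median difference of 0.00 in each of the 6 comparisons used. The labelled tissue was gut, and 13 measured marker genes of the glandular stomach had a median of 13.28 on every array. No gene of that list was more than 0.33 apart between arrays. The highest value of any probe set was 13.87, and flat values near it are no measure of equal glandular content. Of 11 small intestinal marker genes 5 had a mean over 7.41, the middle of the gene means. They ran from Sis, a brush border enzyme at 4.65 to 4.97, and Cdx2 at 6.40 to 6.43 up to Apoa4 at 10.66 to 10.69 and the peptidase Anpep at 11.73 to 11.85, so this list does not place the sample in 1 region of the gut. The highest value of Xist, which male tissue does not express, was 4.91, and no fold is given where a value lay below it. Of 14 suprabasal squamous genes 7 had a mean over 7.41, from Krt2 at 5.76 to Krt10 at 10.37 in GA+GA, and of 11 basal squamous genes 5. Of 15 hair follicle genes 1 did, and of 5 melanocyte genes none. Probe sets differ in brightness, so these counts are a rough check of the list's name and no test of it.

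The promoters of the members are shown first because the largest family in the list, Lce1, has 12 listed genes of similar sequence, and these split into some that differed strongly between arrays and some that hardly did. RefSeq sequence of assembly GRCm38.p6, 250 bases before to 50 after the start of each gene, was found for 36 of the 40 members. The 100 bases before the start are printed 5′ to 3′ on the gene's strand for Lce1c at chr3:92679147-92679246 (plus strand), Lce1e at chr3:92709075-92709174 (minus strand), Lce1h at chr3:92765066-92765165 (minus strand), Lce1a1 at chr3:92648308-92648407 (minus strand) and Lce1a2 at chr3:92670316-92670415 (minus strand). Capitals mark ATAAA, the core of a TATA box, and ACTGTCTCACAG, a word shared by several Lce1 promoters.
Lce1c: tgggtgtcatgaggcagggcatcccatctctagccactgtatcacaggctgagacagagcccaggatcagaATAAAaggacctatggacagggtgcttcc
Lce1e: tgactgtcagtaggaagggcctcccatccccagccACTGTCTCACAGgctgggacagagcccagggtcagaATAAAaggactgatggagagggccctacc
Lce1h: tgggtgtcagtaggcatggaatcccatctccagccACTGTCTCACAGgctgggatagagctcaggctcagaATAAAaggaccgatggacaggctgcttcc
Lce1a1: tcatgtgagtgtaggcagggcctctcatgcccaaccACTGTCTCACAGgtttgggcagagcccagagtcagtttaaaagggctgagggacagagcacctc
Lce1a2: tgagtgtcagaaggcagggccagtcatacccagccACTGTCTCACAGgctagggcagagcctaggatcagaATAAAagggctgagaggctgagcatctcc
In these windows ACTGTCTCACAG began at position -65 or -64 from the start and ATAAA at position -29. On either strand of the 300-base promoter the word was present in 7 of 11 Lce1 genes (Lce1a1, Lce1a2, Lce1b, Lce1d, Lce1e, Lce1h and Lce1i) and in 8 of 27025 promoters in all, 0.0296%. It was found by a search of these Lce1 promoters, so its high share among them is a description. Over the 250 upstream bases, 55 pairs of Lce1 promoters were 47.7% to 85.6% identical, with a median of 64.3%, against a median of 46.3% for 242 pairs of an Lce1 gene with a member outside Lce1 and Lce3.

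Promoters of members outside Lce1 are shown to compare a set that differed strongly (loricrin Lor, the keratinocyte differentiation-associated protein Krtdap, and Sprr3) with a neighbour of Sprr3 that did not (Sprr1a). They lie at chr3:92083143-92083242 (minus strand) for Lor, chr7:30787805-30787904 (plus strand) for Krtdap, chr3:92458721-92458820 (minus strand) for Sprr3 and chr3:92485882-92485981 (minus strand) for Sprr1a. Capitals mark ATAAA between positions -40 and -20 on the gene's strand, TGANTCA (the AP-1 motif, which reads alike on both strands) and CCACCC or its reverse GGGTGG (the KLF motif).
Lor: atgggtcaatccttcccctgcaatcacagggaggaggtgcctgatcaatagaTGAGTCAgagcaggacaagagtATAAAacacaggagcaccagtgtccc
Krtdap: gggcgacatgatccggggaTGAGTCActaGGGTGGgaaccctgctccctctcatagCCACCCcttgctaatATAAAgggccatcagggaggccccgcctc
Sprr3: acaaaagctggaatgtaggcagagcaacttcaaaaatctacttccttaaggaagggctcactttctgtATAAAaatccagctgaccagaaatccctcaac
Sprr1a: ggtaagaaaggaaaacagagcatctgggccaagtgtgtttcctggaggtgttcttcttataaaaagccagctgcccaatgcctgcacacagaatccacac
Lor had TGAGTCA at position -48, Krtdap at -81, and Sprr1a outside the printed bases at -146 and -116. The printed bases of Sprr1a also hold ATAAA, left unmarked because it begins upstream of position -40. TGANTCA occurred in 10 of 36 member promoters (27.8%) against 8.97% of all 27025, CCACCC in 14 (38.9%) against 34.0%, and TTGCNNAA (the C/EBP motif) in 10 (27.8%) against 12.2%, both strands being searched for each. None of the 3 motifs was present in any of the 11 Lce1 promoters. ATAAA began between positions -40 and -20 in 21 of 36 member promoters (58.3%), 10 of the 11 Lce1 genes among them with Lce1a1 the exception, against 5.09% of all promoters. A match is a match of letters only, and promoters of both strongly and weakly differing genes held these motifs.

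Across the 5 arrays the members formed a common order. LG21+Asp was strictly the lowest array for 32 of the 38 members, where 15.9% of all genes had it lowest, and Tep+Asp was strictly the highest for 31, where 14.3% of all genes had it highest. For 29 members both held, against 2.71% of all genes. The 3 arrays in between, GA+GA, LG21+GA and GA+Asp, had a median spread among them of 0.16 over the members, against 0.05 over all genes. Centred on each gene's mean, the members' median was -0.70 in LG21+Asp and 0.56 in Tep+Asp, with 0.01 in GA+Asp, 0.04 in GA+GA and 0.12 in LG21+GA between them.

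In 28 of these 29 genes the distance of Tep+Asp above the highest of the 3 middle arrays and the distance of LG21+Asp below their lowest were each larger than the spread of the 3, which was so for 1.74% of all genes; the exception was Cdsn, the corneodesmosin gene. The 3 middle arrays are 3 different treatments and not replicates, so their spread is not a replicate error. In Lce1f, Serpinb12 and Sbsn these 3 arrays held the same value, so any distance passed. Exact ties occur in 10 of the 38 members and in 63.4% of all probe sets. How far ties alter the shares over all genes was not tested. The distance downward was the larger in 23 of the 29 genes and the distance upward in 6, namely Spink5, Tgm1, Tgm3, Sbsn, Elovl4 and Abca12. Between the highest and the lowest array 22 members were at least 2-fold apart, against 0.813% of all genes.

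**Figure D1:**
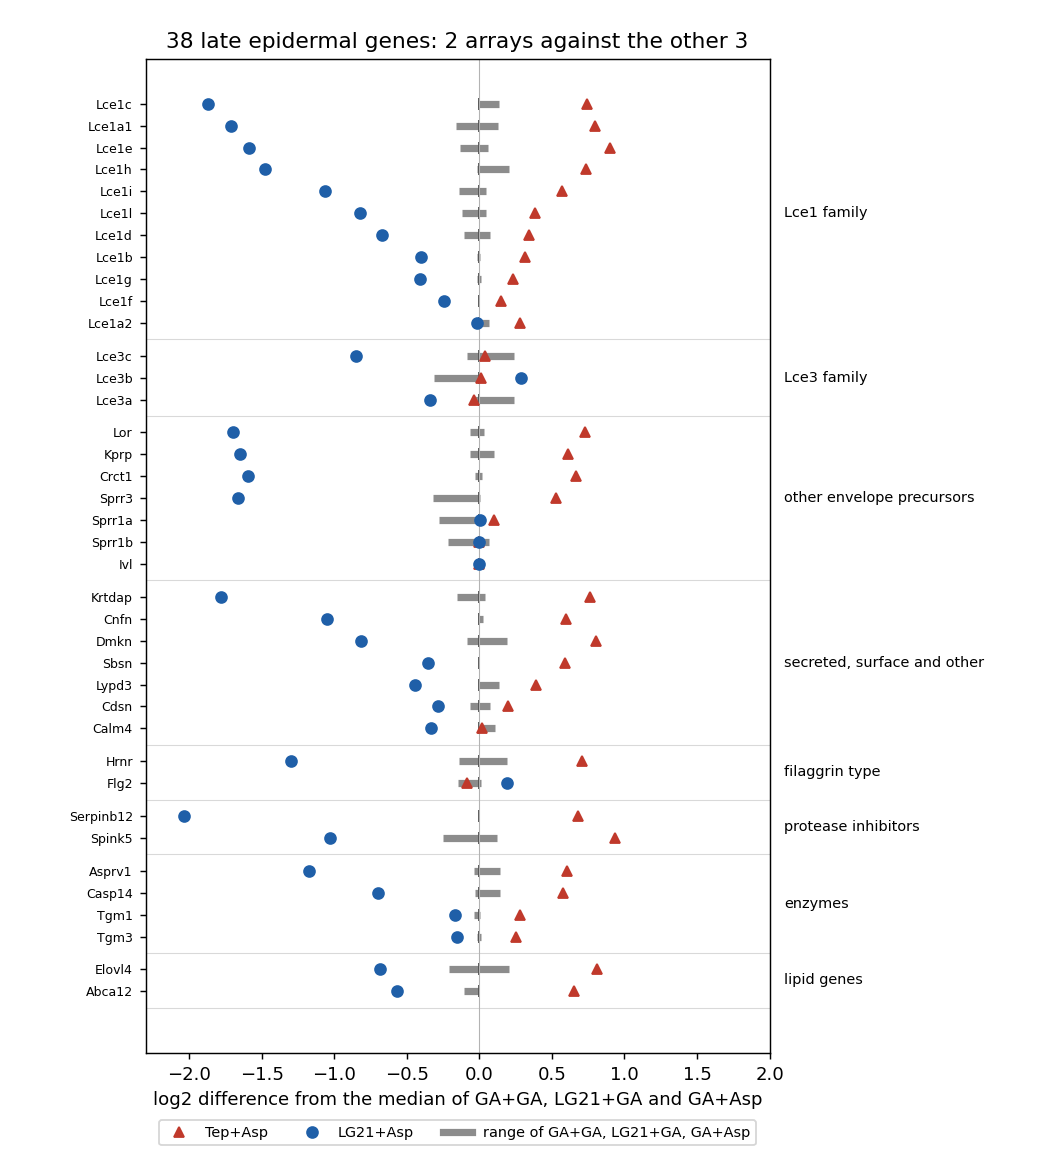
Log2 difference of the Tep+Asp array (triangles) and the LG21+Asp array (circles) from the median of the GA+GA, LG21+GA and GA+Asp arrays, for each of the 38 measured members grouped by role, 1 array per group; grey bars span those 3 arrays. For 29 members the triangle is the highest and the circle the lowest value, and Lce3b, Flg2, Ivl, Sprr1a and Sprr1b are among those that depart from this.

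The Lce1 family codes for late cornified envelope proteins, small precursors joined to the envelope late in its assembly. Lce1c was at 9.87 in GA+GA, 10.01 in LG21+GA, 9.88 in GA+Asp, 10.62 in Tep+Asp and 8.0 in LG21+Asp. The first 3 arrays differed by 0.15, and LG21+Asp was 1.86 below the lowest of them. LG21+Asp was 3.66-fold lower than GA+Asp and 6.12-fold lower than Tep+Asp.

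Lce1a1 followed the same order at 9.62, 9.75, 9.45, 10.42 and 7.91 in GA+GA, LG21+GA, GA+Asp, Tep+Asp and then LG21+Asp. Lce1e stood at 9.21, 9.27, 9.08, 10.12 and 7.63 in that order of arrays. Lce1h stood at 9.26, 9.46, 9.24, 9.99 and 7.78. In these 3 genes LG21+Asp was 2.92-fold, 2.74-fold and 2.75-fold lower than GA+Asp, and Tep+Asp was 1.95-fold, 2.05-fold and 1.68-fold higher than it.

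The other Lce1 genes had smaller differences in the same order, save Lce1a2. Lce1i was at 7.51, 7.46, 7.32, 8.04 and 6.40 in the order GA+GA, LG21+GA, GA+Asp, Tep+Asp and then LG21+Asp, and Lce1l at 6.62, 6.67, 6.51, 7.0 and 5.80. Lce1d ran from 6.58 in LG21+Asp to 7.59 in Tep+Asp, Lce1b from 6.71 to 7.43, Lce1g from 5.32 to 5.96 and Lce1f from 5.56 to 5.95. Lce1a2 was at 5.60, 5.67, 5.56, 5.88 and 5.58, with GA+Asp and not LG21+Asp the lowest, by 0.02. Its promoter carries the same shared word and ATAAA as Lce1e and Lce1h. The Lce1a2 probe set read lower than those of Lce1e and Lce1h on every array. Whether low signal or the promoter bears on its order was not tested. In all, 10 of the 11 measured Lce1 genes had Tep+Asp highest and LG21+Asp lowest, and their median difference was -0.70 between LG21+Asp and GA+Asp and 0.50 between Tep+Asp and GA+Asp. Lce1 genes resemble each other, and whether a probe set of a member also reads its paralogues was not tested, so the 11 are not 11 separate observations.

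The Lce3 genes, late envelope genes associated with barrier repair, departed from this order. Lce3c was at 7.59 in GA+GA, 7.51 in LG21+GA, 7.83 in GA+Asp, 7.63 in Tep+Asp and 6.75 in LG21+Asp. It was lowest in LG21+Asp like the Lce1 genes, but GA+Asp and not Tep+Asp was its highest array. Lce3a ran from 5.89 in LG21+Asp to 6.48 in GA+Asp, while Lce3b was highest in LG21+Asp at 6.59 and lowest in LG21+GA at 5.99. A probe set that names 6 Lce3 genes together, 3 of them members, ran from 8.61 in LG21+Asp to 8.92 in Tep+Asp, a range of 0.31.

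Among the other envelope precursors, Lor, which codes for loricrin, the most abundant protein of the epidermal envelope, was at 9.38 in GA+GA, 9.42 in LG21+GA, 9.32 in GA+Asp, 10.11 in Tep+Asp and 7.68 in LG21+Asp. Its 3 middle arrays lay within 0.10 of each other, and LG21+Asp was 3.11-fold below GA+Asp. Kprp, the keratinocyte proline-rich protein, stood at 7.99, 8.15, 8.05, 8.67 and 6.41 in the same order of arrays. Crct1, a small cysteine-rich protein gene of the complex, stood at 8.68, 8.71, 8.73, 9.38 and 7.12. Sprr3, a small proline-rich protein typical of oesophageal and oral epithelium, stood at 10.39, 10.38, 10.06, 10.91 and 8.72. In Kprp, Crct1 and Sprr3, LG21+Asp was 3.13-fold, 3.04-fold and 2.55-fold lower than GA+Asp.

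The remaining precursors did not have this order. Sprr1a was at 12.50 in GA+GA, 12.22 in LG21+GA, 12.51 in GA+Asp, 12.60 in Tep+Asp and 12.50 in LG21+Asp, so that LG21+Asp equalled the control to within 0.01 and the whole range was 0.38. Sprr1b, its close paralogue, ran from 6.15 in LG21+GA to 6.43 in GA+Asp and had the same value, 6.37, on the other 3 arrays. Ivl, the gene of involucrin, an early scaffold of the envelope, was recorded at 5.96 on all 5 arrays. Of the 7 precursors outside Lce, 4 were therefore at least 2-fold lower in LG21+Asp than in GA+Asp and 3 differed by less than 0.10.

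**Figure D2:**
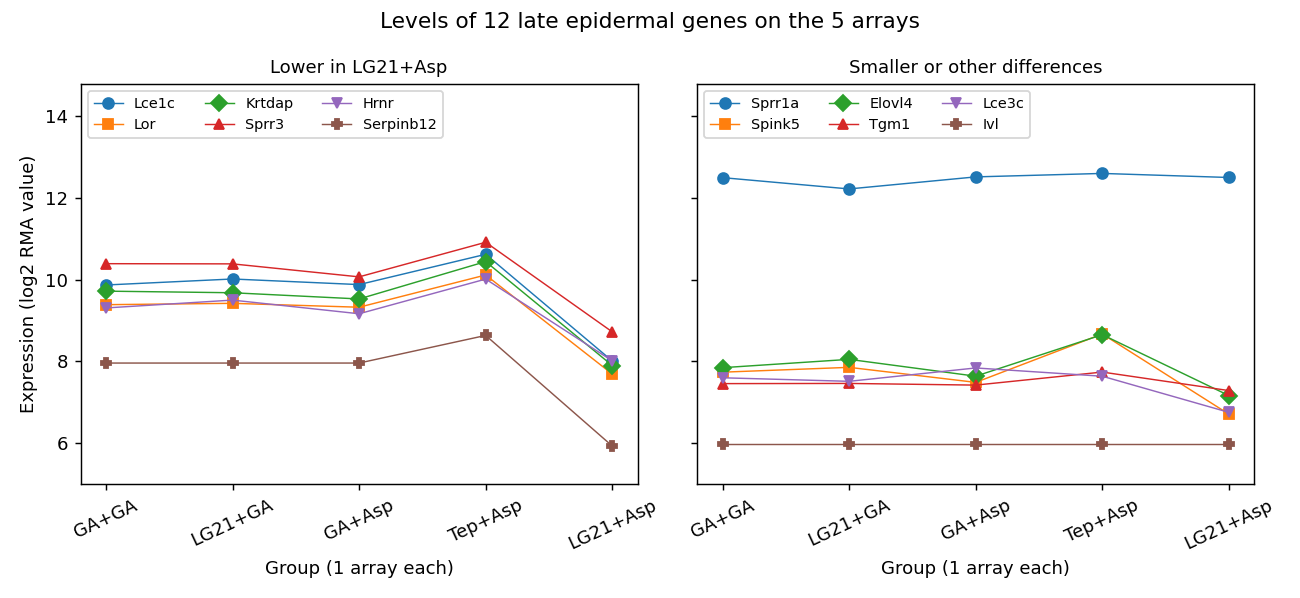
Log2 expression value of 12 members on each of the 5 arrays (1 array per group, so no error bars); lines join values of the same gene, and heights of different genes are not comparable. The 6 genes on the left are at 8.72 or less in LG21+Asp and higher on each other array, whereas on the right Sprr1a stays between 12.22 and 12.60 and Ivl at 5.96.

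Filaggrin type proteins bundle keratin filaments and are later cut into the small molecules that hold water in the cornified layer. Hrnr, the hornerin gene, was at 9.30 in GA+GA, 9.50 in LG21+GA, 9.16 in GA+Asp, 10.01 in Tep+Asp and 8.01 in LG21+Asp, and LG21+Asp was 2.23-fold lower than GA+Asp. Flg2 lay near the level of Xist on every array, from 4.68 in GA+Asp to 5.02 in LG21+Asp, and no fold is given for it.

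The 2 protease inhibitors differed in shape. Serpinb12, a clade B serpin of squamous cells, was at 7.95 on each of GA+GA, LG21+GA and GA+Asp, at 8.63 in Tep+Asp and at 5.92 in LG21+Asp. Its LG21+Asp value was 4.09-fold below GA+Asp and 6.54-fold below Tep+Asp, the largest folds of any member in these comparisons. Spink5, whose product LEKTI restrains the kallikreins that shed the cornified layer, was at 7.73, 7.85, 7.48, 8.67 and 6.70 in GA+GA, LG21+GA, GA+Asp, Tep+Asp and then LG21+Asp. Tep+Asp was 2.28-fold above GA+Asp in Spink5 and LG21+Asp 1.71-fold below it, so here the difference upward was the larger.

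The envelope enzymes differed less. Asprv1, a retroviral-like protease that processes filaggrin, was at 8.69, 8.87, 8.72, 9.33 and 7.55 in the order GA+GA, LG21+GA, GA+Asp, Tep+Asp and then LG21+Asp. Casp14, a caspase of cornification, ran from 6.17 in LG21+Asp to 7.45 in Tep+Asp. Tgm1 and Tgm3, the transglutaminases that cross-link the precursors, had the smallest differences of the 4 enzymes: Tgm1 ran from 7.28 to 7.73 and Tgm3 from 6.89 to 7.30 between the same arrays. All 4 enzymes had Tep+Asp highest and LG21+Asp lowest, and only Asprv1 was at least 2-fold lower in LG21+Asp than in GA+Asp.

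The 2 lipid genes were among the 6 members that stood further up in Tep+Asp than down in LG21+Asp. Elovl4, which makes the very long fatty acids of barrier ceramides, was at 7.84, 8.04, 7.63, 8.65 and 7.16 in GA+GA, LG21+GA, GA+Asp, Tep+Asp and then LG21+Asp. Abca12, the lipid transporter of lamellar granules, was at 6.91, 6.91, 6.80, 7.56 and 6.33. Tep+Asp was 2.02-fold above GA+Asp in Elovl4 and 1.70-fold above it in Abca12.

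Secreted, surface and other genes of the upper layers completed the list. Krtdap was at 9.72 in GA+GA, 9.68 in LG21+GA, 9.52 in GA+Asp, 10.44 in Tep+Asp and 7.89 in LG21+Asp, which was 3.10-fold below GA+Asp and 5.84-fold below Tep+Asp. Cnfn, the cornifelin gene, was at 8.86, 8.89, 8.86, 9.46 and 7.81, and Dmkn, the dermokine gene, at 7.86, 8.05, 7.77, 8.66 and 7.05. Sbsn, the suprabasin gene, was at 7.21 on all 3 middle arrays, at 7.80 in Tep+Asp and at 6.86 in LG21+Asp. These 4 genes kept the common order, with Krtdap and Cnfn at least 2-fold lower in LG21+Asp than in GA+Asp. Lypd3, a surface protein of the upper layers, ran from 7.65 in LG21+Asp to 8.48 in Tep+Asp, and Cdsn, the adhesive protein of the corneodesmosome, from 7.21 to 7.70. Calm4, a calmodulin-like gene of the epidermis, was lowest in LG21+Asp at 6.25 but highest in GA+Asp at 6.69.

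Aspirin after gum arabic, compared with gum arabic alone, came with no member 2-fold apart in either direction, against 0.532% of all genes. The members' median difference between GA+Asp and GA+GA was -0.01, with Sprr3 at -0.32 and Lce3c at 0.24 the ends of the range. LG21 followed by gum arabic, compared with gum arabic alone, also had none, against 0.110% of all genes, and the median difference was 0.02. In that comparison the members ran from Lce3b at -0.32 to Lce1h at 0.21. With shares of all genes this small, a count of none is no result about the members. Over GA+GA, LG21+GA and GA+Asp the members had a median spread of 0.16, against 0.05 over all genes.

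LG21 before aspirin was compared with gum arabic before aspirin, a difference between arrays that both had aspirin. Alone it does not give a change in the aspirin effect, which also needs the arrays without aspirin. In LG21+Asp 14 of 38 members were at least 2-fold lower than in GA+Asp, against 0.145% of all genes, and none was at least 2-fold higher, against 0.130%. The median difference of the members was -0.62. The 14 were Lce1a1, Lce1c, Lce1e, Lce1h, Lce3c, Lor, Kprp, Crct1, Sprr3, Hrnr, Serpinb12, Asprv1, Krtdap and Cnfn, of which Cnfn at -1.05 was nearest to the 2-fold line; Lce1i at -0.92 and Spink5 at -0.78 were the nearest outside it. Only Lce1a2, Lce3b and Flg2 were higher in LG21+Asp, by 0.02, 0.28 and 0.34 on the log2 scale.

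The array of teprenone before aspirin differed in the opposite direction. Compared with GA+Asp, Tep+Asp was higher in 33 of 38 members, where it was higher in 6896 of all 19938 genes. The median difference of the members was 0.60, and Tep+Asp was at least 2-fold higher in Spink5, Lce1e and Elovl4, 3 members against 0.0802% of all genes. No member was at least 2-fold lower, against 0.0201%. Lce1e at 1.04 and Elovl4 at 1.02 were just inside the 2-fold line and Lce1a1 at 0.96 and Krtdap at 0.92 just outside it. With GA+GA in place of GA+Asp as the baseline, no member was at least 2-fold higher in Tep+Asp. No group had teprenone without aspirin. For Tep+Asp, too, a difference of the array or its mice and a difference by treatment cannot be told apart.

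The protective agents set against each other, both before aspirin, gave the widest differences. In LG21+Asp 21 members were at least 2-fold lower than in Tep+Asp, against 0.231% of all genes, with none at least 2-fold higher against 0.0552%, and a median difference of -1.21. The largest was Serpinb12 at -2.71, followed by Lce1c at -2.61, Krtdap at -2.55 and Lce1a1 at -2.51, and Lce1d at -1.02 was the smallest of the 21. These comparisons share arrays, since GA+Asp is the baseline of both agents and LG21+Asp enters several, and their values are given side by side without a count of agreement between them.

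Aspirin after LG21, compared with LG21 and gum arabic, is free of the GA+Asp array. In LG21+Asp 16 members were at least 2-fold lower than in LG21+GA, against 0.201% of all genes, none was at least 2-fold higher, against 0.00502%, and the median difference was -0.80. Lce1c differed by -2.01 here, Lor by -1.73, Sprr3 by -1.67 and Krtdap by -1.78. Lce1i, Spink5 and Dmkn were at least 2-fold lower here but not against GA+Asp, and Lce3c at -0.76 was 2-fold lower only against GA+Asp. The LG21+Asp array is low for these genes against each other array, and a difference of that array or of the mice behind it and a difference by treatment cannot be told apart.

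The size of the difference went with the level of the probe set, with exceptions. The 21 members with a mean over 7.41 had a median difference of -1.17 between LG21+Asp and GA+Asp and held all 14 that were at least 2-fold lower. The rest of the 21 included Sprr1a, which had the highest mean of all members, 12.47, and differed by -0.01. Tgm1 at -0.13, Cdsn at -0.22 and Lypd3 at -0.45 were also among that rest. The 17 members below that level had a median of -0.40 and none 2-fold lower. Probe sets near background give compressed differences, and how much of this split is due to it was not tested.

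Position along chromosome 3 was not used to choose the members. Of the 40, 25 lie in the stretch from Lor to Hrnr in the RefSeq table, and 15 lie on 10 other chromosomes. Of 23 measured in the stretch 13 were at least 2-fold apart between arrays, and of 15 measured elsewhere 9 were, among them Krtdap, Serpinb12, Asprv1 and Cnfn. Within the stretch large and small differences stood next to each other. Sprr3 lies between Sprr1b and Sprr1a and ranged over 2.20, against 0.29 and 0.38 for those neighbours, and Lce1a2, with a range of 0.32, lies beside Lce1c with 2.61.

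The stretch holds 18 measured genes that are not members, and 3 of them were at least 2-fold apart, against 0.813% of all genes. Lce1j was at 9.62, 9.69, 9.53, 10.21 and 8.36 in GA+GA, LG21+GA, GA+Asp, Tep+Asp and then LG21+Asp, in the members' order. Lce3e was at 6.43, 6.35, 6.59, 6.85 and 4.46, the last below the level of Xist. Lce6a was at 6.37, 6.57, 6.17, 7.33 and 5.94, further up in Tep+Asp than down in LG21+Asp. The 7 measured Sprr2 genes ranged over 0.06 to 0.62, and Crnn, the cornulin gene, over 0.34.

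**Figure D3:**
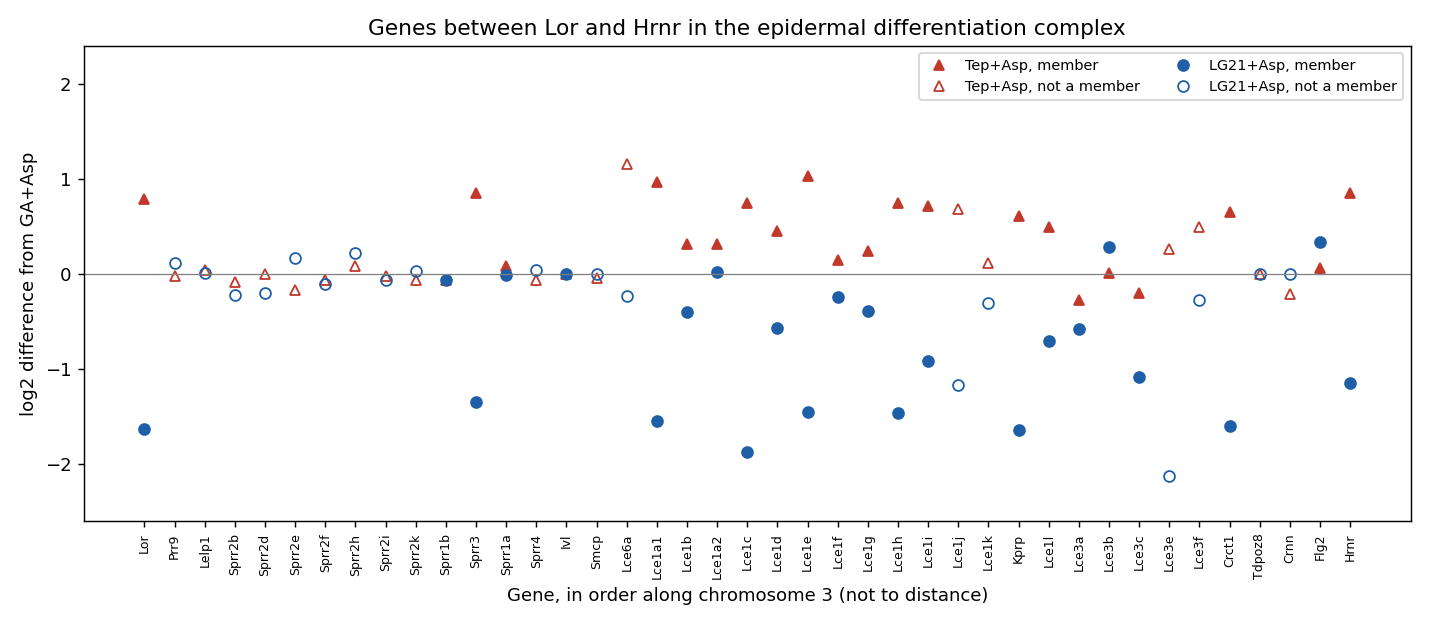
Log2 difference from GA+Asp of the Tep+Asp array (triangles) and the LG21+Asp array (circles) for 41 measured genes from Lor to Hrnr, in their order along chromosome 3 and not to distance; filled symbols are members, open symbols other genes. The Sprr2 genes lie near 0, while Lor, Sprr3, Lce1c and Kprp have the filled circle below -1; the LG21+Asp value of Lce3e is below the level of Xist.

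Other genes of cornification were listed by role. Since the members were chosen with these results known, smaller differences among the genes left over are partly fixed by that choice and are no contrast with the members. Of 34 measured further precursors and structural proteins, 5 were at least 2-fold apart between arrays, against 0.813% of all genes: Lce3e, Lce1j, Lce6a, Rptn and Scel. Rptn, the repetin gene, was at 7.02 on the 3 middle arrays, 7.38 in Tep+Asp and 5.81 in LG21+Asp, and Scel, the sciellin gene, ran from 6.0 in LG21+Asp to 7.18 in Tep+Asp. The median difference of that list between LG21+Asp and Tep+Asp was 0.00. The envelope scaffold gene Ppl, for periplakin, ran from 7.82 to 8.22 between the same arrays, whereas Evpl, for envoplakin, was within 0.02 on all 5.

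Of 38 measured proteases and inhibitors of squamous layers 3 were at least 2-fold apart, against 0.813% of all genes, with a list median of -0.10 between LG21+Asp and Tep+Asp. These were Serpinb3a, at 6.22 in Tep+Asp and 3.83 in LG21+Asp, Serpinb3c, at 5.89 and 4.45, and the membrane protease Tmprss11f, at 6.18 and 5.10. Serpinb3a and Serpinb3c lay below the level of Xist in LG21+Asp, and counts of genes at least 2-fold apart take such values as deposited. Raised to the level of Xist, 4.91, Serpinb3c would be less than 1 log2 unit apart and would leave the count. Klk5, the kallikrein that Spink5 restrains, ran from 5.70 in LG21+Asp to 6.40 in Tep+Asp, and Klk7 over 0.17 in all.

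Of 23 measured barrier lipid genes none was 2-fold apart, against 0.813% of all genes, and the list median was -0.03 between LG21+Asp and Tep+Asp. The epidermal lipase genes Lipm and Lipn and the lipoxygenase gene Alox12b had ranges of 0.83, 0.81 and 0.69, each highest in Tep+Asp and lowest in LG21+Asp. Of 9 measured genes listed as cross-linking, deimination and other enzymes beside the members only Hal was 2-fold apart. Hal, for histidine ammonia-lyase of epidermis and liver, is among the other enzymes of that list. It ran from 6.27 in GA+Asp to 7.50 in GA+GA, which is not the members' order. Of 36 measured regulators of squamous differentiation none was 2-fold apart. With 0.813% of all genes that far apart, a count of none in lists of this size is no result about them. Trp63, the master regulator of stratified epithelium, ranged over 0.07, Klf4 over 0.29, Grhl3 over 0.27 and Zfp750 over 0.14, and Hopx, with 0.41, was the widest.

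**Figure D4:**
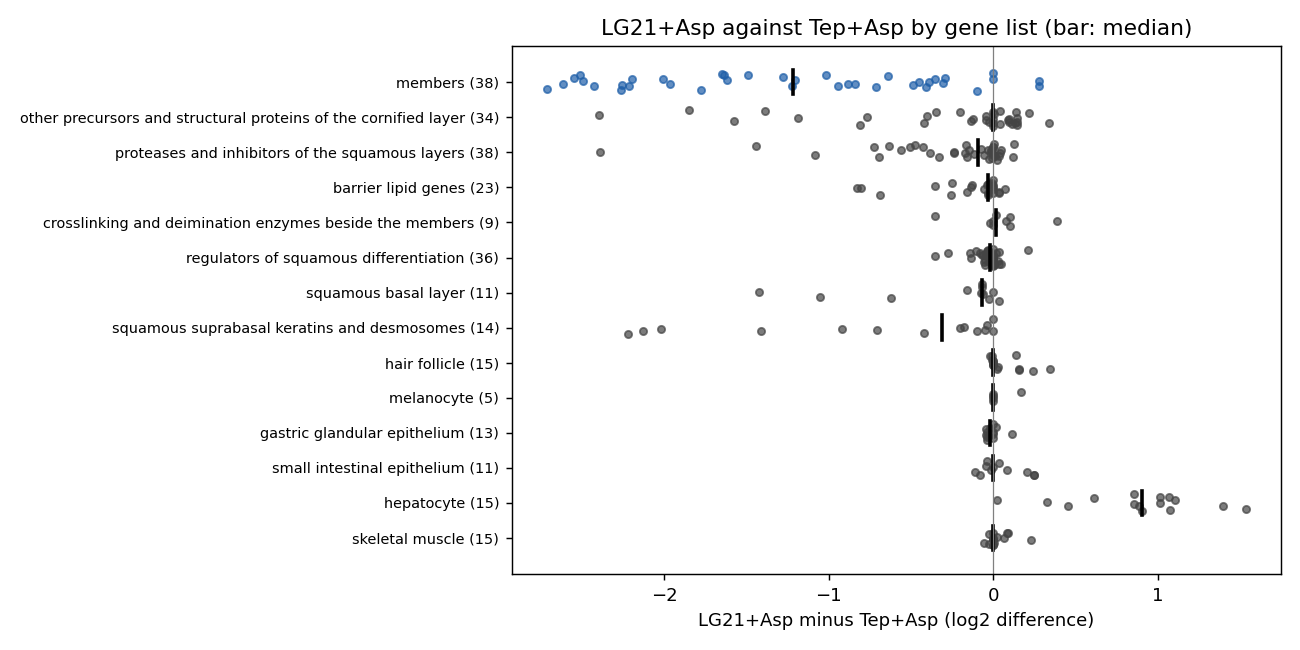
Log2 difference between the LG21+Asp and Tep+Asp arrays for the members and for 13 other gene lists, 1 point per gene with the number of genes in brackets and a black bar at the median. The members' median is at -1.21, that of the suprabasal keratins and desmosomes at -0.31, that of the hepatocyte genes at 0.90 and those of the other 11 lists between -0.10 and 0.02.

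Some markers of the squamous layers had the members' order and others did not. In 4 suprabasal genes LG21+Asp was at least 2-fold lower than Tep+Asp, against 0.231% of all genes. These were Krt4 at -2.22, Krt1 at -2.13, Krt10 at -2.02 and Krt13 at -1.41. Krt16 was tied on all 5 arrays, and Krt78 ranged over 0.04. Of 14 measured suprabasal keratins and desmosome genes 7 had Tep+Asp highest and LG21+Asp lowest, beside 2.71% of all genes, and their summed linear level came to 5010 in GA+GA, 5102 in LG21+GA, 4384 in GA+Asp, 6784 in Tep+Asp and 2666 in LG21+Asp. That of the 38 members was 17137, 16704, 16560, 23831 and 10787 on the same arrays. Of these sums the 9 members outside the common order, Sprr1a among them, held 6444, 5397, 6574, 6886 and 6358. The 29 members in that order held 10693, 11307, 9987, 16946 and 4429. They were picked by that order, so their sum is a description. Of 11 measured basal layer genes 4 had that order, with a median difference of -0.07 between LG21+Asp and Tep+Asp. Their summed level was 4585, 4505, 4407, 4817 and 4288. None of the basal genes was at least 2-fold lower in LG21+Asp than in GA+Asp. With 0.145% of all genes that far lower, this is no result about them. Of the suprabasal genes 3 were: Krt4 at -2.07, Krt13 at -1.25 and Krt1 at -1.01. Krt5 was at 9.0 in Tep+Asp and 7.58 in LG21+Asp and Krt14 at 7.40 and 6.77, whereas Itgb4 was at 9.43 on all 5 arrays and Itga6, also present in glandular epithelium, ranged over 0.07. The part of squamous tissue content in the members' differences was not tested, and in these bulk samples fewer cells of a type and less RNA per cell cannot be told apart.

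None of the 15 hair follicle, 5 melanocyte, 11 small intestinal, 13 glandular stomach, 15 hepatocyte or 15 skeletal muscle genes measured had Tep+Asp highest and LG21+Asp lowest. The share over all genes was 2.71%. The hepatocyte genes summed to 26046, 20654, 10029, 11560 and 16038 in GA+GA, LG21+GA, GA+Asp, Tep+Asp and then LG21+Asp, with the lowest sum in GA+Asp. Of these 15 genes 13 were at least 2-fold apart between arrays, while Apoa1 ranged over 0.06 and Ttr over 0.41. Their median difference was 0.90 between LG21+Asp and Tep+Asp, 15 of 15 being higher in LG21+Asp, and their part in the members' differences was not tested. The skeletal muscle genes summed to 2495 in GA+Asp and to between 1983 and 2009 on the other arrays.

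Outside the list, the genes nearest to the members' median pattern were ranked by the root mean squared difference over the 5 arrays, after centring, among genes at least 2-fold apart between arrays. With predicted and clone names left out, the 10 nearest were Mt4, Dsg3, Scel, Il1f6, Tmprss11f, Dapl1, Krt5, Il1f5, Rptn and Krt13. Their differences were 0.0668 for Mt4, 0.0744 for Dsg3 and 0.208 for Krt13. Mt4, a metallothionein of stratified squamous epithelium, was at 7.51, 7.70, 7.39, 8.03 and 6.74 in GA+GA, LG21+GA, GA+Asp, Tep+Asp and then LG21+Asp. Dsg3, a desmosomal cadherin of the lower squamous layers, was at 6.20, 6.20, 6.10, 6.59 and 5.54. Il1f6 and Il1f5, the genes of interleukin-36 alpha and of the interleukin-36 receptor antagonist, ran from 6.44 to 7.49 and from 6.41 to 8.06 between LG21+Asp and Tep+Asp. The ranking covers 5 arrays and is a description.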

How the data were processed

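Total RNA of 5 samples was measured, 1 array per group, and groups came from the sample labels. The authors deposited log2 expression values per probe set, RMA values from Expression Console per the labels (the design text instead names the Exon Array Computational Tool); the log2 scale was taken from the values, which run from 1.32 to 13.87. Versions, genome build and probe sequences are not given in the sources used here. Exact ties between arrays occur in 10 of the 38 members and in 63.4% of all probe sets.

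Of 35557 probe sets, 21789 carry 1 gene symbol in GEO's platform annotation, 1621 several and 12147 none. For 999 genes with several, the highest mean was taken. Members and lists were chosen with earlier results of these data known. Every measured member is named. Of each list, genes at least 2-fold apart are named, plus a few whose role is described. The 10 genes nearest in pattern are named too, with predicted and clone names left out. Klk7, Ppl, Evpl and the like were picked for their role. No group could be tested. Counting was tested on simulated data. Alternatives were 2 filters, 2 thresholds, the mean of probe sets, quantile and cyclic loess normalization, leaving out Lce1 genes and, chosen after seeing the data, GA+GA as baseline. Tools were Python 3.11.15, pandas 2.3.3, Biopython 1.88 (global alignment of promoters) and R 4.3.3 with limma 3.58.1.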

Additional observations from a re-analysis of the deposited data

How the results depend on the processing

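Of 100 alternative values for 14 results, 78 stayed within 1.5 times the count or 0.1 of the median, 22 moved and none reversed; all 42 from the mean of probe sets, quantile normalization and cyclic loess stayed. With the filter at the median of gene means (21 members), LG21+Asp was lowest in 20 and Tep+Asp highest in 20, and the medians were -1.17 for LG21+Asp minus GA+Asp, 0.74 for Tep+Asp minus GA+Asp, -2.00 for LG21+Asp minus Tep+Asp and -1.49 for LG21+Asp minus LG21+GA. With the filter at the 75th percentile (10 members) these were 9, 10, -1.46, 0.82, -2.32 and -1.67, and the counts of members at least 2-fold apart were 9, 1, 9 and 9 for the 4 comparisons in that order. Both filters leave fewer members to count. At 3-fold, 6 members were lower in LG21+Asp than in GA+Asp, 10 lower than in LG21+GA, and 0 higher in Tep+Asp than in GA+Asp; at 1.5-fold 20 were higher there. Without the Lce1 genes, Tep+Asp was highest in 20 of 27. With GA+GA as the baseline, an alternative chosen after seeing the data, 0 members were at least 2-fold higher in Tep+Asp. No paired analysis was possible because each group has 1 array and no replicate number, and for the same reason no array could be left out as a replicate. Low signal limits Flg2 most, since its values lie at the level of Xist, and the tied values, such as those of Ivl, limit what small differences can be read.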
